A study of Mus musculus with 2 samples.

Results

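The integrated stress response genes described here are 10 transcripts taken by symbol from the 23282 rows of each count table: the kinase gene Eif2ak3, the transcription factor genes Atf4, Atf3, Atf5 and Ddit3, and the response genes Ddit4, Trib3, Chac1, Asns and Sesn2. All 10 symbols were found, each on 1 row. RNA came from 3T3-L1 cells, a mouse line that can be turned from fibroblast-like preadipocytes into adipocytes and that the labels call murine adipocytes. One culture received a control siRNA (labelled control) and the other an siRNA against Pink1 (labelled sipink), the gene of a kinase that tags failing mitochondria for mitophagy. Each group was 1 library of 3′-end tags. No label used here gives the siRNA sequences, the hours since transfection or how far the cells had differentiated, and the labels state no question about the stress response.

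The integrated stress response slows protein synthesis when a cell senses trouble. Separate kinases read separate stresses (PERK, encoded by Eif2ak3, reads misfolded protein in the endoplasmic reticulum, and HRI, encoded by Eif2ak1, reads haem shortage and a signal relayed from mitochondria), and all of them phosphorylate the initiation factor eIF2. Most translation then falls while a few messages with upstream open reading frames, among them those of ATF4, ATF5 and CHOP, are translated better, and ATF4 switches on genes for amino acid supply, redox balance and mTORC1 restraint. Since the first steps act on protein, transcript counts read the later, transcriptional part of the pathway and not the kinase activity itself.

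ATF4 binds with a C/EBP partner to a composite site, the C/EBP-ATF response element (CARE), searched here as TGATGNAA on both strands of the RefSeq promoter windows of GRCm38.p6 (250 bases before to 50 bases after each annotated start). Of 32851 windows, 3.97% held a match. Windows were found for all 10 members, and 4 members held a match: Atf3, Chac1, Trib3 and Asns. The 4 matches are shown with 10 bases on either side, on the strand that carries the motif, with the motif in capitals, because they let the members be compared at the element itself.

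Atf3 (chr1:191183426-191183453, + strand): gcggacttggTGATGCAAgtgcgagaag

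Chac1 (chr2:119351039-119351066, - strand): ctggcaggagTGATGCAAcggcagggaa

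Trib3 (chr2:152344029-152344056, + strand): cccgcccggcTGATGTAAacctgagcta

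Asns (chr6:7693215-7693242, - strand): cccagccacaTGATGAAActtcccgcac

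Atf3 and Chac1 share the letters TGATGCAA, Trib3 has TGATGTAA and Asns has TGATGAAA. The match lies 103 to 110 bases before the start of Atf3, 186 to 193 before that of Chac1, 16 to 23 before that of Asns, and 15 to 22 bases into the transcript of Trib3. None of the 11 windows of the 10 members (Atf5 has 2) held the cAMP response element TGACGTCA (1.79% of all windows) or the endoplasmic reticulum stress element, CCAAT and CCACG with 9 bases between them (0.119%). For contrast, the 250 bases before the start are shown for Ddit4 and Sesn2, the measured members with the highest and the lowest ratio between the libraries, which hold no match, and for Asns, whose match is in capitals.

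Ddit4 (chr10:59951771-59952020, - strand): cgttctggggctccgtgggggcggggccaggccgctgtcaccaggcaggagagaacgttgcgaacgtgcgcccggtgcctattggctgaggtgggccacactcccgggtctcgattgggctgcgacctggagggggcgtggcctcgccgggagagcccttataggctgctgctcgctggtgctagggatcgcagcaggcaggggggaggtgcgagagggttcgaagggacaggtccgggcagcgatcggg

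Sesn2 (chr4:132510457-132510706, - strand): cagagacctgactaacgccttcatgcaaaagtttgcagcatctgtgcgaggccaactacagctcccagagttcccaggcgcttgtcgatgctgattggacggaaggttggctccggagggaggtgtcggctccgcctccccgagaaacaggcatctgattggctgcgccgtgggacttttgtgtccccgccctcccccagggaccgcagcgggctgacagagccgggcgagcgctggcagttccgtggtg

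Asns (chr6:7693210-7693459, - strand): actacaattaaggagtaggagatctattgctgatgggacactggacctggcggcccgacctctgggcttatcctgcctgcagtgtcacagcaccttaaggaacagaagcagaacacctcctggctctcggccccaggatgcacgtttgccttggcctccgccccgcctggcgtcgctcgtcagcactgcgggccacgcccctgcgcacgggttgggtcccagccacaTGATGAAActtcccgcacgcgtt

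A match describes these letters only, and no match says nothing about binding outside the window. The stretch before Ddit4 was 70.0% G and C, against 63.2% for Sesn2 and 61.6% for Asns.

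The control library held 13803174 counts and the Pink1 siRNA library 14214768. Pink1 itself was at 36.5 CPM (counts scaled to a common library size) with the control siRNA and 25.1 with the Pink1 siRNA, a ratio of 0.687 whose counting interval (0.598 to 0.788) lay below 1 and whose interval after widening by the excess spread of genes at its level (0.445 to 1.05) held 1, while that with a common factor (0.479 to 0.978) did not. The direction goes with the label, and the Pink1 transcript was still detected. Of the 12 mature adipocyte markers 11 were measured (summed level 2603 and 2814 CPM, Lep at 0), and the 7 preadipocyte and fibroblast markers summed to 18605 and 20812 CPM, so both kinds of transcript were present. The 6 macrophage markers summed to 4.43 and 3.28 CPM (Adgre1 and Itgam at 0), the 4 endothelial markers came to 8 and 7 counts (Cdh5, Kdr and Tek at 0), and 1 of 5 osteoblast markers was measured, with Sp7 and Bglap at 0. The osteoblast markers summed to 430 and 228 counts (30.7 and 16.3 CPM), and 1 gene alone held 419 of the 430 control counts. The part of this difference, and of those between the other marker sums, in the results was not tested.

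Levels are CPM over scaled library sizes, and a ratio is the Pink1 siRNA level over the control level. As each group is a single library, no difference can be set against replicates, and no p-value is given. Genes with at least 40 counts over the 2 libraries together count as measured, and a measured gene as higher or lower where its ratio is 2 or more in that direction and the 95% counting interval does not hold 1. Widened intervals divide the counts by the excess spread seen among genes of the same level band, 1 of 20 bands of equal size. A second widening divides the counts of every gene by 1 common factor, 6.30, the excess spread of the most weakly expressed measured genes, and is named where used. In bulk RNA, a change in the share of cells that express a gene and a change in RNA per cell cannot be told apart.

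**Figure D1:**
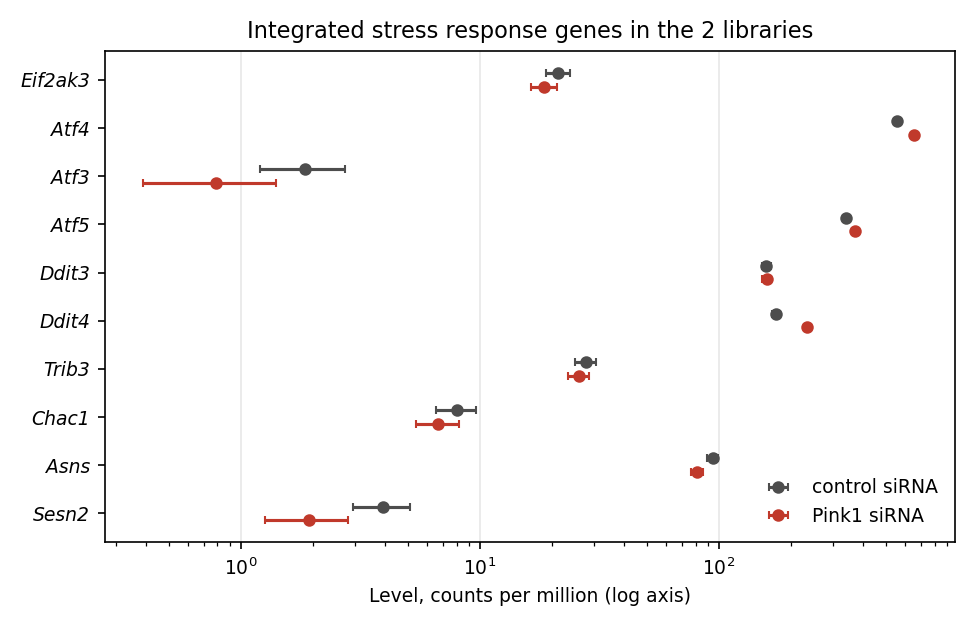
Level of each member in CPM (log axis) in the control siRNA library (grey) and the Pink1 siRNA library (red), 1 library each, with bars for the 95% Poisson interval of the count. The intervals of the 2 libraries are apart for Atf4, Atf5, Ddit4, Asns and Sesn2, and Atf3 and Sesn2 sit at the low end with the widest bars.

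Most of the stress response transcripts differed little between the libraries. Of the 10 members, 9 were measured and 1, Atf3, fell short of the count minimum. Among the 9, 0 were higher and 1, Sesn2, was lower by the rule of size. Over all 11660 measured genes the rule took 1.63% as higher and 2.39% as lower. Those shares came largely from weakly expressed genes: with 200 summed counts required, 26 genes were higher and 40 lower. Of the 9, only Sesn2 had fewer than 200 summed counts (82). Of the 9 measured members, 8 lay within 1.5-fold, as did 87.0% of all measured genes. Their median log2 ratio was -0.10, from -1.01 for Sesn2 to 0.43 for Ddit4, against 0.00 over all measured genes. Ratios were above 1 for 4 members and below 1 for 5. In all, the members took 19408 counts (0.141%) of the control library and 21782 (0.153%) of the Pink1 siRNA library, a total made up mainly of Atf4 and Atf5.

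The counting interval left out 1 for 5 of the 9, above it for Atf4, Atf5 and Ddit4 and below it for Asns and Sesn2. That is also the case for 51.2% of all measured genes (26.2% above and 24.9% below), so a difference beyond counting error is common in this pair of libraries. The widened interval left out 1 for 0 of the 9, against 4.10% of all measured genes (2.09% above and 2.01% below). With the common factor it left out 1 for 2 of the 9, Atf4 and Ddit4, both above 1, against 12.3% of all measured genes (7.10% above and 5.20% below). The common factor, 6.30, comes from weakly expressed genes, while the excess spread in the level bands of Ddit4 and Atf4 was 32.5 and 128. Its intervals are therefore narrower for such strongly expressed genes. Which of the 2 widenings is nearer to the spread between replicates cannot be known from 1 library a group.

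**Figure D2:**
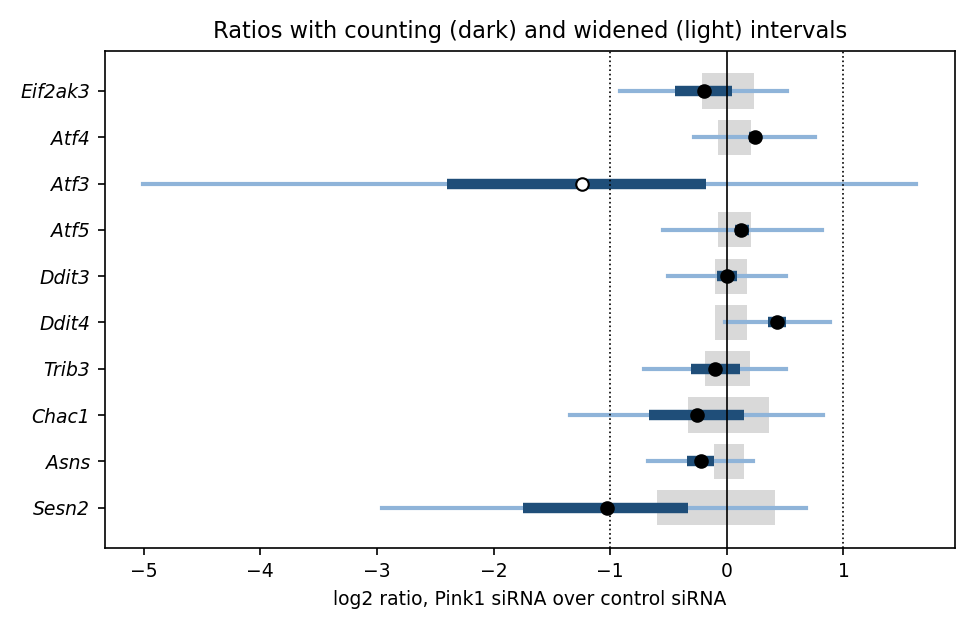
Log2 ratio of each member (Pink1 siRNA over control siRNA, circles; open for Atf3, which is under the count minimum) with its 95% counting interval (dark bar), its interval widened by level band (light line; for Atf3 by the common factor) and the interquartile range of all genes of the same level band (grey box). The dotted lines mark a ratio of 2 either way: Ddit4 lies to the right of its box at 0.43, Sesn2 lies on the left dotted line at -1.01, and every light line crosses 0.

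The sensor gene did not pass the rule, and its counting interval held 1. Eif2ak3, whose product PERK spans the endoplasmic reticulum membrane, had 298 counts in the control library and 260 in the Pink1 siRNA library (21.3 and 18.6 CPM). Its ratio of 0.873 had a counting interval of 0.736 to 1.03 and a widened one of 0.530 to 1.43. The value lay within the interquartile range of its level band, where 159 of 583 genes were as low or lower. The gene lies on chromosome 6 from 70844484 to 70905241 (GRCm38.p6).

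The other eIF2 kinases stood at similar ratios. Eif2ak1 (HRI) had 892 and 903 counts, a ratio of 1.01 with a widened interval of 0.712 to 1.44. Eif2ak2 (PKR, which reads double-stranded RNA) had a ratio of 1.12 and Eif2ak4 (GCN2, which reads uncharged tRNA) one of 0.931. The 4 kinase genes thus spanned log2 ratios from -0.20 to 0.16, none past the rule, beside 4.02% of all measured genes. Eif2ak1 overlaps Aimp2 on the opposite strand (651 and 735 counts), and since strand use in counting is unknown its counts are uncertain.

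Atf4, the central transcription factor of the response, was the member with the most counts. It had 7792 in the control library and 9174 in the Pink1 siRNA library, or 556 and 655 CPM. The ratio was 1.18 (counting interval 1.14 to 1.21), just outside the interquartile range of its band (log2 -0.08 to 0.21). In that band, the highest of the 20, counts differed far more than counting error, with an excess spread of 128, so that the widened interval ran from 0.825 to 1.69 (1.09 to 1.27 with the common factor, which leaves out 1), and 125 of 583 genes had a ratio as high or higher. The short gene lies on chromosome 15 from 80255184 to 80257545.

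Atf5, a relative of Atf4 that is also under translational control and that has been linked to the mitochondrial unfolded protein response, stood beside it. It had 4757 and 5208 counts (340 and 372 CPM), a ratio of 1.09 with a counting interval of 1.05 to 1.14 and a widened one of 0.684 to 1.76. The median gene of its level band was itself at a log2 ratio of 0.09, against 0.13 for Atf5. Atf5 (chromosome 7, 44812256 to 44816658) overlaps the first part of Nup62 on the opposite strand, with 82 shared exonic bases and 569 and 693 counts for Nup62.

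Ddit3 encodes CHOP, which acts downstream of ATF4 and promotes cell death in prolonged stress. Its counts were 2219 and 2221, or 158 and 159 CPM. The log2 ratio was 0.00, and the ratio had a counting interval of 0.943 to 1.06 and a widened one of 0.705 to 1.42. The first covers counting error only. With 1 library a group, neither interval bounds the difference or shows that none exists. Ddit3 (chromosome 10, 127290793 to 127296291) converges at its 3′ end with the methionyl-tRNA synthetase gene Mars, itself a listed ATF4 target, over 68 bases. Mars had 2136 and 2219 counts, and without known strand use the 3′ tags of this overlap cannot be assigned.

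Atf3, an early stress-induced factor, was near the limit of detection. It had 26 counts in the control library and 11 in the Pink1 siRNA library (1.86 and 0.785 CPM), where a count of 0 would allow up to 0.214 CPM. The ratio was 0.423 (counting interval 0.189 to 0.886), with an interval of 0.0312 to 3.08 when widened by the excess spread of weakly expressed genes. Differences of this size were common at such counts: among 304 genes with 30 to 39 summed counts, 24.0% were at least 2-fold lower and 17.1% at least 2-fold higher. No direction was therefore read for Atf3 (chromosome 1, 191170296 to 191183333).

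Of the response genes, 2 restrain mTORC1, the growth kinase complex, and they lay at opposite ends of the 9 measured members. Ddit4 encodes REDD1, which acts through the TSC complex. It had 2438 counts in the control library and 3292 in the Pink1 siRNA library (174 and 235 CPM), a ratio of 1.35 with a counting interval of 1.28 to 1.42. In its level band 25 of 583 genes (4.29%) had a ratio as high or higher, and the band's interquartile range was -0.10 to 0.17 on the log2 scale against 0.43 for Ddit4. The widened interval, 0.992 to 1.85, just included 1, and that with the common factor, 1.18 to 1.54, did not. Ddit4 (chromosome 10, 59949675 to 59951770) has no measured overlapping gene. It is also known to respond to hypoxia, glucocorticoids and p53.

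Sesn2 encodes sestrin 2, which acts on GATOR2 when leucine is scarce. It had 55 counts in the control library and 27 in the Pink1 siRNA library (3.93 and 1.93 CPM). It was lower by the rule, with a ratio of 0.491 and a counting interval of 0.298 to 0.792, while the widened interval of 0.129 to 1.60 included 1. Of the 1065 genes with 40 to 99 summed counts, 15.9% were lower by the rule and 9.95% higher, and in the level band of Sesn2 68 of 583 genes were at or under its ratio. Its place past the rule was lost when 5 was added to the counts in place of 0.5, when ratios were taken relative to the level band, when 200 summed counts were required and with either widened interval. The log2 ratio moved little, from -1.01 to -0.91 with 5 added and to -0.94 relative to the level band. Sesn2 lies on chromosome 4 from 132492804 to 132510456.

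The relatives of these genes were read beside them. Sesn1, a p53-responsive sestrin, had 336 and 387 counts (ratio 1.15). Sesn3, a sestrin under FoxO control, had 724 and 424 counts, and its ratio of 0.586 had a widened interval of 0.393 to 0.863, below 1, though it did not reach the rule. In its level band 3 of 583 genes were as low or lower. Ddit4l had 0 counts in both libraries, which allows up to 0.214 CPM in each.

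Trib3, a pseudokinase that binds ATF4 and AKT, and Chac1, an enzyme that degrades glutathione, are classical readouts of ATF4 and CHOP acting together. Trib3 had 389 and 363 counts (27.8 and 25.9 CPM), a ratio of 0.933 with a counting interval of 0.807 to 1.08 and a widened one of 0.611 to 1.42. Chac1 had 112 and 94 counts, a ratio of 0.839 with a counting interval of 0.631 to 1.11 and a widened one of 0.393 to 1.77. Both counting intervals included 1, and both values lay within the interquartile range of their level bands. The genes lie on chromosome 2, Trib3 from 152337425 to 152344060 and Chac1 from 119351242 to 119354326.

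Their paralogs did not share 1 direction. Chac2, a slower enzyme of the same activity, had 17 and 49 counts and was higher by the rule (ratio 2.88, counting interval 1.63 to 5.34). Its widened interval, 0.711 to 16.6, included 1, and the gene lies within Asb3 on the opposite strand (247 and 283 counts), so its few counts are uncertain. Trib1 had a ratio of 0.821 and Trib2 one of 1.10, neither past the rule.

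Asns makes asparagine and is the best studied amino acid response gene. It had 1322 counts in the control library and 1132 in the Pink1 siRNA library (94.4 and 80.8 CPM). The ratio of 0.856 had a counting interval of 0.790 to 0.928, below 1, and a widened one of 0.626 to 1.17. The value was outside the interquartile range of its band (log2 -0.11 to 0.15), where 67 of 583 genes were as low or lower. Asns lies on chromosome 6 from 7675165 to 7693209.

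**Figure D3:**
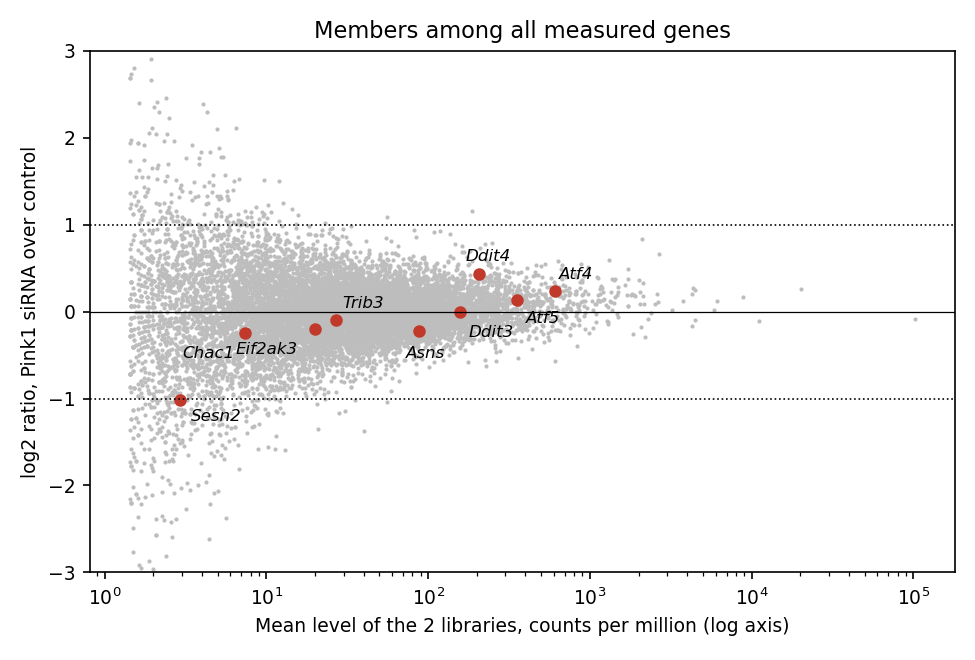
Log2 ratio (Pink1 siRNA over control siRNA) against the mean level of the 2 libraries in CPM (log axis) for measured genes with a unique symbol (grey; 10 genes beyond 3 either way are outside the frame), with the 9 measured members in red. Dotted lines mark a ratio of 2, and the grey cloud widens toward low levels, where Sesn2 sits at -1.01.

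The 4 members with a CARE match (Atf3, Chac1, Trib3 and Asns) included 3 measured ones, Chac1, Trib3 and Asns, with log2 ratios of -0.25, -0.10 and -0.22, and the 6 without spanned -1.01 to 0.43. Atf3 (-1.20) was under the count minimum, and no direction is read from it. Over all measured genes with a promoter window, the 233 that held a match had a median log2 ratio of -0.02 (interquartile range -0.24 to 0.17) and the 8618 that did not had 0.01 (-0.21 to 0.21). By the rule, 6 of the 233 were higher and 6 lower, or 5.15% in either direction against 3.62% of the 8618. No test of the difference was made.

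The rest of the pathway was read from 15 lists of related genes, 144 genes besides the members, of which 138 were measured. Of these, 2 were higher by the rule (Gdf15 and Chac2) and 2 lower (Fos and Slc7a11), beside 4.02% of all measured genes in either direction. Passing was rare at higher counts: with 200 summed counts required, 26 genes were higher and 40 lower over the whole table. A list with none past the rule is therefore not read as a result about its genes. The interval widened by level band lay above 1 for 1 of the 138 and below 1 for 6, beside 2.09% and 2.01% of all measured genes. That with the common factor lay above 1 for 6 and below 1 for 12, beside 7.10% and 5.20% of all measured genes. The 138 had a median log2 ratio of -0.02, with 68 ratios above 1 and 70 below. The list medians ran from -0.16 to 0.08.

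**Figure D4:**
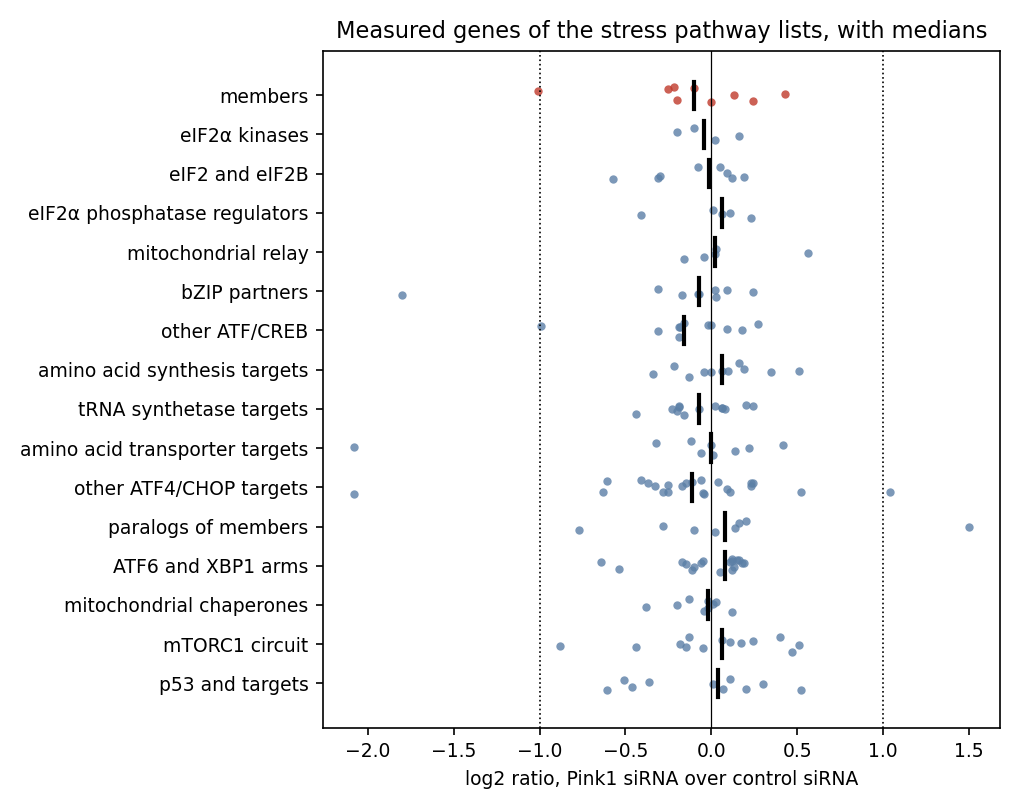
Log2 ratio (Pink1 siRNA over control siRNA) of each measured gene in the members (red) and in 15 related lists (blue), with the median of each list as a black bar and dotted lines at a ratio of 2 either way. Points are spread vertically only to separate them, a gene may stand in more than 1 list, and the medians all lie near 0 while single genes such as Slc7a11 (-2.08), Fos (-1.80) and Gdf15 (1.04) lie far out.

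Upstream of ATF4, the translation machinery that the kinases act on showed no gene past the rule, beside 4.02% of all measured genes. The 8 eIF2 and eIF2B genes had a median of -0.01 on the log2 scale. Eif2b3, a subunit of the exchange factor eIF2B, had 215 and 145 counts (-0.57), Eif2b2 had -0.31, Eif2b5 -0.30 and Eif2b4 0.19. Among the 5 regulators of eIF2 dephosphorylation and kinase inhibition (median 0.06), Ppp1r15a, the GADD34 subunit that is itself induced by ATF4, had 205 and 154 counts and a ratio of 0.751 (widened interval 0.430 to 1.30). Its constitutive counterpart Ppp1r15b had a ratio of 1.17, Dnajc3 had 1.08 and Nck1 1.04. All of these widened intervals included 1.

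The relay from mitochondria to HRI is the arm nearest to the targeted kinase. Its 5 genes had a median of 0.02, none past the rule, beside 4.02% of all measured genes. The transcript of Dele1, listed under 0610009O20Rik and encoding the mitochondrial protein that activates HRI, had 310 and 457 counts, a ratio of 1.47 with a counting interval of 1.27 to 1.71 and a widened one of 0.937 to 2.34, or 1.01 to 2.16 with the common factor, which leaves out 1. In its level band 22 of 583 genes were as high or higher. Oma1, the protease that cleaves DELE1, had 330 and 295 counts (ratio 0.894), Yme1l1 had 0.970 and Lonp1 1.02.

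Dimer partners of the ATF factors were mostly level. Of the 10 listed bZIP partners 9 were measured, with a median of -0.07. Fos was lower by the rule, from 148 counts to 42 (10.6 and 3.00 CPM), with a ratio of 0.284 and a widened interval of 0.101 to 0.690 that lay below 1, and no other of the 583 genes of its level band was as low. Junb had a log2 ratio of -0.31, Cebpb 0.24 and Cebpa -0.17, and Cebpg, the usual C/EBP partner of ATF4 in the amino acid response, had 1644 and 1558 counts (ratio 0.948). The 11 other ATF and CREB genes had a median of -0.16 with none past the rule, beside 4.02% of all measured genes. The lowest was Creb5, with 96 and 48 counts (log2 -0.99), followed by Atf1 at -0.31, and Atf6b had 0.27 and Atf2 -0.19.

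Targets for amino acid supply held the listed gene farthest from a ratio of 1. Slc7a11, the cystine importer xCT, had 61 counts in the control library and 14 in the Pink1 siRNA library and was lower by the rule. The ratio of 0.230 had a counting interval of 0.119 to 0.415 and a widened one of 0.0337 to 0.942 (0.0283 to 1.03 with the common factor, which holds 1), and 8 of 583 genes of its level band were as low or lower. At one of its RefSeq starts the window held 2 CARE matches, 1 on each strand, shown here as for the members because it is the listed gene with the lowest ratio.

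Slc7a11 (chr3:50443662-50443689, - strand): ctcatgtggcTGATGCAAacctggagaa

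Slc7a11 (chr3:50443643-50443670, + strand): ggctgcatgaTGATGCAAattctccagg

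Both matches read TGATGCAA, as in Atf3 and Chac1, at 59 to 66 and 40 to 47 bases before the start. The other 8 transporter genes were not past the rule, which took 4.02% of all measured genes. The median of the 9 was 0.00, with Slc6a9 at 0.42, Slc38a2 at -0.32 and Slc1a5 at 0.22. Slc3a2, the heavy chain that pairs with xCT, had 2722 and 2507 counts (ratio 0.921).

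No enzyme target passed the rule, beside 4.02% of all measured genes. Of 12 amino acid synthesis and one-carbon enzyme genes 11 were measured, with a median of 0.06. Aldh18a1, which starts proline synthesis, had 190 and 270 counts (0.51), Phgdh, which starts serine synthesis, 508 and 647 (0.35), Gpt2 -0.34 and Mthfd1l -0.22. The 13 tRNA synthetase and exporter genes had a median of -0.07, with Nars, the asparaginyl-tRNA synthetase, at 2745 and 2029 counts (-0.44), Iars at 0.24, Lars at -0.23 and Cars at -0.20. In the level band of Nars 4 of 583 genes were as low or lower, and its widened interval (0.524 to 1.04) included 1, unlike that with the common factor (0.638 to 0.856). In this list 5 of the 8 genes with a promoter window held a CARE match (Aars, Gars, Iars, Tars and Yars). Across all the lists besides the members 15 of 115 did, and of the 14 measured 7 had a ratio above 1 and 7 below.

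Other reported targets of ATF4 and CHOP were divided. Of 25 genes 23 were measured, with a median of -0.11. There were 8 ratios above 1 and 15 below, beside 5957 and 5703 over all measured genes. By the rule 1 was higher (Gdf15) and 1 lower (Slc7a11, at -2.08, which is also in the transporter list), beside 1.63% and 2.39% of all measured genes. Both had 40 to 99 summed counts, where 25.8% of genes passed the rule in either direction. Gdf15, a stress hormone that is released in mitochondrial disease, had 25 and 52 counts (1.78 and 3.71 CPM) and was higher by the rule, with a ratio of 2.08 and a widened interval of 0.611 to 8.44 that included 1. Fgf21, the other hormone of the mitochondrial stress response, had 0 counts in both libraries. Bcl2l11 (BIM), a CHOP-induced death gene, had 1004 and 650 counts, with a ratio of 0.647 and a widened interval of 0.442 to 0.940. Gadd45a had a log2 ratio of -0.61 and Bbc3 (PUMA) one of 0.52, both with widened intervals that included 1.

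The other arms of organelle stress signalling held no gene past the rule, which took 4.02% of all measured genes in either direction. In the ATF6 and XBP1 arms of the unfolded protein response 18 of 19 genes were measured, with a median of 0.08. The chaperone BiP (Hspa5), their standard readout, had 21246 and 20417 counts (log2 -0.06), Xbp1 -0.10 and Dnajb9 -0.54. Pdia4, at -0.64, was the lowest and the only one with a widened interval below 1, with Hyou1 at 0.19 and Atf6 at 0.18. Among 9 mitochondrial chaperone and protease genes the median was -0.02, with Trap1 at -0.38, Hspd1 at -0.20, Dnaja3 at -0.13 and Htra2 at 0.12. Of the listed genes named above, Eif2b4, Ppp1r15a, Junb, Cebpb, Slc6a9, Gadd45a, Aars, Yars, Trap1, Hspd1, Dnaja3 and Htra2 also overlap another measured gene, which makes their counts uncertain in the same way.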

How the data were processed

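Libraries were made with a QuantSeq 3′ kit, per the labels' protocols, and processed with bcl2fastq 2.20.0.422, Bowtie2 and bedtools on mm10, per the submitters' processing notes. No source used here gives the annotation, the placing of multiply mapped reads or the use of strand. The deposited tables hold unnormalized read counts for each gene symbol, a unit inferred from their whole values and unequal totals. No molecular identifiers are named, so intervals and floors cover counting error only. The 35 symbols on more than 1 row were counted but not named.

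Counts were scaled by TMM (edgeR 4.0.16, R 4.3.3). Log2 ratios, and the ratio in the rule of size, had 0.5 added to the scaled counts. Ratio intervals were exact conditional binomial (Clopper-Pearson) and level intervals exact Poisson, both 95% and two-sided (SciPy 1.17.1); a count of 0 is given the floor of 3 counts. Excess spread is the squared deviation of the 2 counts from an even split, divided by what binomial sampling gives, averaged over each of 20 level bands (5.58 to 128) or over the 2915 most weakly expressed measured genes (6.30, the common factor). Technical spread and true differences between the cultures both enter it. The rule of size was tested on simulated counts that had counting spread only. The excess spread of the real pair, and so the widened intervals, lay outside that test. Overlaps came from GENCODE M21 and coordinates, promoters and 1 synonym (Dele1) from RefSeq GRCm38.p6, the assembly behind mm10.

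Names followed a rule: the members, Pink1, every list gene past the rule of size and the up to 4 measured genes per list that lay farthest from a ratio of 1. Slc3a2, Cebpg, Hspa5, Xbp1, Mars, Trib2, Rheb, Cdkn1a, Phlda3 and genes with a motif or no counts were added after their values were seen. The members and lists were chosen with earlier results of these data known.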

Additional observations from a re-analysis of the deposited data

How the results depend on the processing

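Over 12 alternative settings 235 values were recomputed, and 217 stayed within the counting interval (for list medians, within that of the middle member; for counts, within 1.5 times). Of 59 recomputed member log2 ratios, 0 took the other sign among members whose value was not 0.00; Ddit3 went from 0.00 to -0.04 with total-count scaling. Relative to the median of the level band, Atf4 was at 0.15 and Atf5 at 0.04. The count of members past the rule on the lower side, 1, was 0 with 5 added before the log, relative to the level band, with a summed count of 200 and with either widened interval, and 2 with no filter, which lets in Atf3. Of 128 recomputed list medians 2 took the other sign, the mitochondrial relay at -0.02 with total-count scaling and the p53 list at -0.01 relative to the level band. Over all genes, 190 were higher and 279 lower; these counts became 597 and 853 with no filter, 26 and 40 with a summed count of 200, 633 and 774 at a ratio of 1.5, 48 and 81 with the interval widened by level band, and 47 and 80 with the common factor. No paired analysis was possible because each group had 1 library, which also leaves no library to leave out. Depth limits Atf3, Sesn2, Chac2, Gdf15 and Slc7a11, none with more than 61 counts in a library.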

Other observations

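The mTORC1 circuit on which REDD1 and the sestrins act was read as a list of 13 genes, all measured. Their median log2 ratio was 0.06, with none past the rule of size, beside 4.02% of all measured genes. Depdc5, a subunit of the GATOR1 complex that inhibits mTORC1, had 253 counts in the control library and 137 in the Pink1 siRNA library, a ratio of 0.542 with a widened interval of 0.309 to 0.926 that lay below 1. Tsc2, a subunit of the TSC complex, had 1219 and 1684 counts, a ratio of 1.38 with a widened interval of 1.04 to 1.85, but it shares 693 bases with Pkd1 (1012 and 1553 counts), so its counts are uncertain. Mtor had 278 and 395 counts (log2 0.51), Rheb 654 and 861 (0.40) and Wdr59 192 and 141 (-0.44), and these 3 widened intervals included 1. Those with the common factor also included 1 for Mtor and Wdr59, but not for Rheb (1.01 to 1.72). Mtor overlaps Angptl7 (24 and 21 counts) on the opposite strand, with 0 shared exonic bases, so its counts are uncertain too.

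Several members also answer to p53, so p53 and 9 of its targets were read too. All 10 were measured, with a median of 0.04, 6 ratios above 1 and 4 below. None was past the rule, beside 4.02% of all measured genes. The highest were Bbc3 (log2 0.52) and Phlda3 (0.30), and the lowest was Gadd45a (-0.61), named above among the ATF4 and CHOP targets. Trp53 had 341 and 239 counts (ratio 0.701, widened interval 0.426 to 1.14) and Btg2 had 455 and 331 (log2 -0.46). Cdkn1a, which encodes the cell cycle inhibitor p21, had 4805 and 3749 counts, and 8 of 583 genes in its level band had a ratio as low or lower, while its widened interval of 0.464 to 1.30 included 1 and that with the common factor, 0.700 to 0.870, lay below it. Cdkn1a and Phlda3 were named after their values were seen.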
